A study of Mus musculus with 10 samples.

Results

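The genes described here encode the machinery by which nerve terminals fill, dock and fuse synaptic vesicles. They are 31 genes, chosen by name as vesicle, fusion and active zone components, out of 28871 genes in the deposited count table of the hippocampus. All 31 were found under their symbols and all 31 passed the filter on low counts, which kept 19093 genes. The groups were 5 samples of mice given Visudyne, a formulation of the photosensitizer verteporfin, and 5 samples of mice given vehicle. The agent was injected into the cisterna magna, and in both groups light of 689 nm was then shone through the intact skull, a procedure used to ablate the lymphatic vessels of the meninges. It was repeated after 2 weeks, and hippocampi were taken a further 2 weeks later. All mice were male, wild-type C57BL/6J and 2 months old, and total RNA was sequenced with a stranded kit. Whether every sample came from its own animal is not stated, so p-values measure the spread between these samples. Samples given Visudyne without light were not analysed here.

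At a chemical synapse, vesicles loaded with transmitter by vesicular transporters are tethered at the active zone by scaffold proteins, primed by Munc13 proteins and fused with the plasma membrane by the SNARE complex when synaptotagmin binds calcium. Synapsins hold the reserve pool, Rab3 proteins and their RIM effectors guide vesicles to the release site, and complexins clamp and assist fusion. In the hippocampus most terminals are glutamatergic and carry Slc17a7 (VGLUT1), and the terminals of interneurons carry Slc32a1 (VGAT). The comparison asks whether loss of meningeal lymphatic drainage was accompanied by altered expression of these genes.

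In the RefSeq promoter table (GRCm38.p6) 24 of the 31 genes had an entry, with 33 windows in all. Snap25, Vamp2, Syn3, Syt4, Syt7, Rims2 and Nrxn2 had none. On either strand, 3 well-known motifs were searched in the 250 bases before the transcription start: the left part of the RE1 element bound by the repressor REST, TTCAGCACC; the cyclic AMP response element, TGACGTCA; and the binding motif of nuclear respiratory factor NRF1, searched as GCGC and TGCGC with any 1 base between them. Syn1 was the member whose window held the first and the second, against 0.301% and 1.55% of all 32851 windows. The NRF1 motif was in 3 of the 33 windows of members, those of Bsn, Pclo and Syp, against 3.74% of all windows. The promoters of Syn1, widely used to restrict transgenes to neurons, and of the homologous active zone scaffolds Bsn and Pclo are shown 5′ to 3′ on the strand of the gene, up to the annotated start of the gene, with the matches in capitals. They lie at chrX:20921005-20921168 (minus strand), chr9:108190385-108190633 (minus strand) and chr5:14514668-14514917 (plus strand). The stretches shown have 164, 249 and 250 bases. That of Syn1 opens with the NRF1 motif short of its first base, and a motif cut by the edge was not counted. A match describes these letters and is not evidence of binding.
Syn1: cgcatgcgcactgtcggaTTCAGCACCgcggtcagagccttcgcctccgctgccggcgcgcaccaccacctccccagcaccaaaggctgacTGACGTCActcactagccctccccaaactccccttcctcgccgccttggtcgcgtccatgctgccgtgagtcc
Bsn: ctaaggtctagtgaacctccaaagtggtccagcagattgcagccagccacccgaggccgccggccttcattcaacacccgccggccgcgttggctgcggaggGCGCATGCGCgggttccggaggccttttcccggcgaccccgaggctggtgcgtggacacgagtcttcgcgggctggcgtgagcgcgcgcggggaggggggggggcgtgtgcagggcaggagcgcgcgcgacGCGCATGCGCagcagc
Pclo: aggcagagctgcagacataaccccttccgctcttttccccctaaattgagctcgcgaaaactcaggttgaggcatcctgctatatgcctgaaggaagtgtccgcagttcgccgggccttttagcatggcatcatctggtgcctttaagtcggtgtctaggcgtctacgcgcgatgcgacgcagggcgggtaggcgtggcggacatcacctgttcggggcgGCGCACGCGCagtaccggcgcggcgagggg

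The 31 genes ranged from among the most abundant transcripts of the hippocampus to scarce ones. Levels of different genes were compared as CPM (counts scaled to the size of the library) divided by the length of the merged exons in kilobases, and values with ± are the mean and SD of 5 samples. Snap25, the neuronal t-SNARE, stood first with 212 ± 20.4 in Visudyne and 224 ± 15.2 in vehicle samples, and its lowest sample (188 CPM per kilobase) lay above the highest sample of any other member (177 for Syp). Synaptophysin (Syp), the vesicle membrane protein used to stain terminals, had 161 ± 11.5 in Visudyne and 165 ± 9.65 in vehicle samples, and Slc17a7 had 147 ± 9.53 in Visudyne and 153 ± 10.7 in vehicle samples. Rab3a, Cplx2 and Syt1 followed, and the ranges of neighbours from Syp down to Syt1 overlapped. These 6 genes lay above the 99th percentile of all annotated genes tested, from 99.1 for Syt1 to 99.6 for Snap25. The gap between Snap25 and Syp depends on the length used. Divided by the longest transcript instead, Snap25 had 295 ± 28.4 in Visudyne and 312 ± 21.1 in vehicle samples. Syp then lay close to it, with 295 ± 21.1 in Visudyne and 302 ± 17.7 in vehicle samples.

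Below them the order ran through Cplx1, Sv2b, Sv2a, Syn1, Syt4, Vamp2, Rab3c, Syt7, Bsn, Unc13a, Stx1a, Rims1, Pclo, Nrxn3, Nrxn2, Syn2, Slc32a1, Rims2, Rab3b, Vamp1, Syt2, Sv2c, Unc13c and Unc13b to Syn3. Neighbours did not overlap over the 10 samples at 7 of the 30 steps, which lay below Snap25, Syt1, Cplx1, Sv2a, Nrxn3, Vamp1 and Unc13c. Syn3, the synapsin of immature neurons, had 1.07 ± 0.186 in Visudyne and 0.976 ± 0.123 in vehicle samples, and Unc13b (Munc13-2) had 1.101 ± 0.123 in Visudyne and 1.09 ± 0.139 in vehicle samples. Syn3 and Unc13b lay at the 34.7th and 35.8th percentile of all annotated genes tested. Divided by the longest transcript, Unc13b (rank 31) lay below Syn3 (rank 30). The counts behind these levels ran from 563 in the lowest library of Syn3 to 104294 in the highest library of Snap25.

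**Figure D1:**
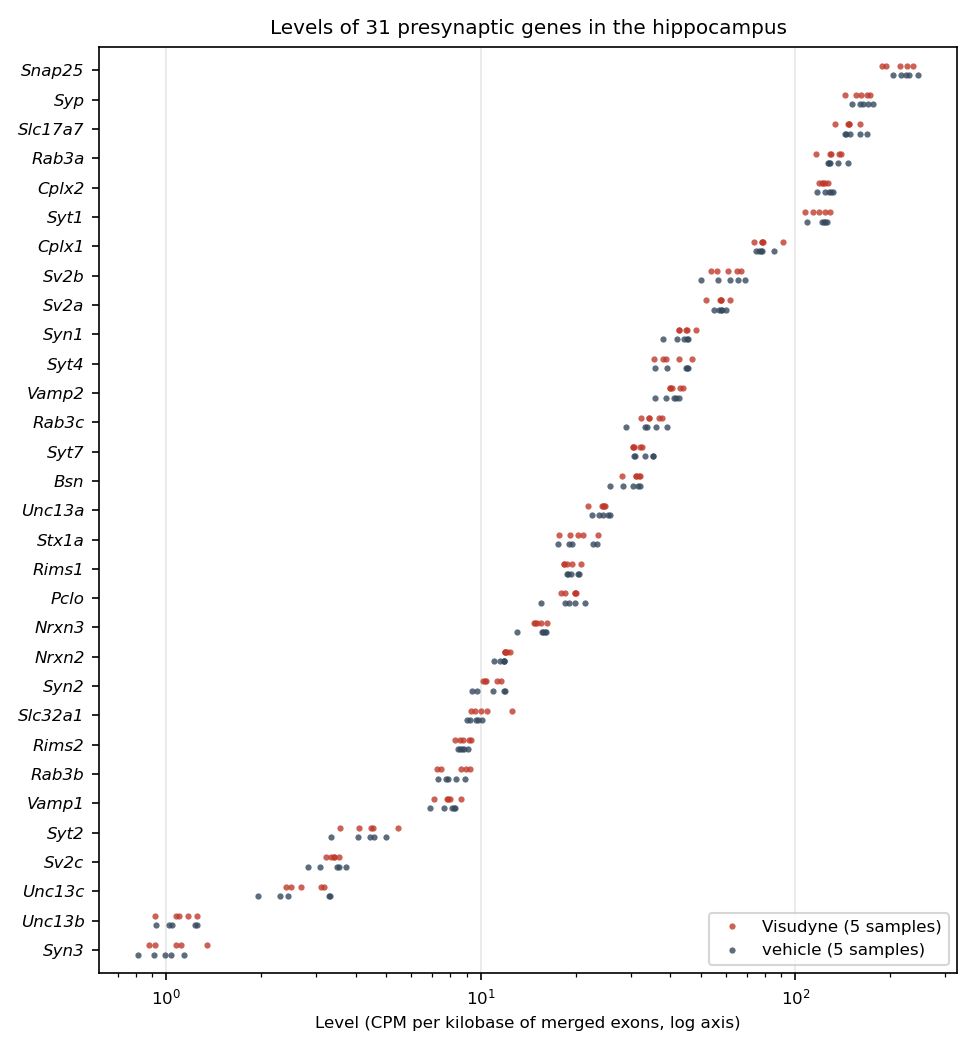
Level of each of the 31 genes in CPM per kilobase of merged exons (log axis), 1 point per sample, with the 5 Visudyne samples above the 5 vehicle samples of the same gene. Snap25 is highest and Syn3 lowest, and in every gene but Nrxn2 the ranges of the groups overlap.

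Visudyne and vehicle hippocampi did not differ beyond the spread between samples in any of the 31 genes. By edgeR's quasi-likelihood test 0 members were higher and 0 lower at an adjusted p under 0.05, where 0.021% of all 19093 genes were called, all of them higher with Visudyne. At an unadjusted p under 0.05 there were also 0 members, where 1.7% of all genes passed, and DESeq2 and limma voom called 0 members. The smallest unadjusted p was 0.132, for Syt7, and every member had an edgeR adjusted p of 0.9999. The log2 fold changes, Visudyne minus vehicle, ran from -0.082 for Snap25 to 0.13 for Syn3, with 17 positive and 14 negative and a median of 0.0083, beside a median of 0.0022 over all genes tested. By role, the median log2 fold change lay between -0.042 for the 4 synaptotagmins and 0.057 for the 3 synapsins. In 26 members the difference was smaller than its SE, and in 0 it exceeded 2 SE.

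The precision of the comparison is given by the 95% intervals of the log2 fold changes, which are not adjusted for the number of genes. In 27 of 31 members the whole interval lay within a 1.2-fold change in either direction, and in 7 within a 1.1-fold change. The exceptions to the first were Syn3 (-0.13 to 0.39), Syt2 (-0.21 to 0.30), Unc13c (-0.25 to 0.36) and Slc32a1 (-0.044 to 0.29). The lowest bound of any member was -0.25 and the highest 0.39. In bulk tissue, fewer cells of a type and less RNA per cell cannot be told apart, and changes between isoforms of a gene (such as the alpha and beta neurexins) were not measured in these counts per gene.

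**Figure D2:**
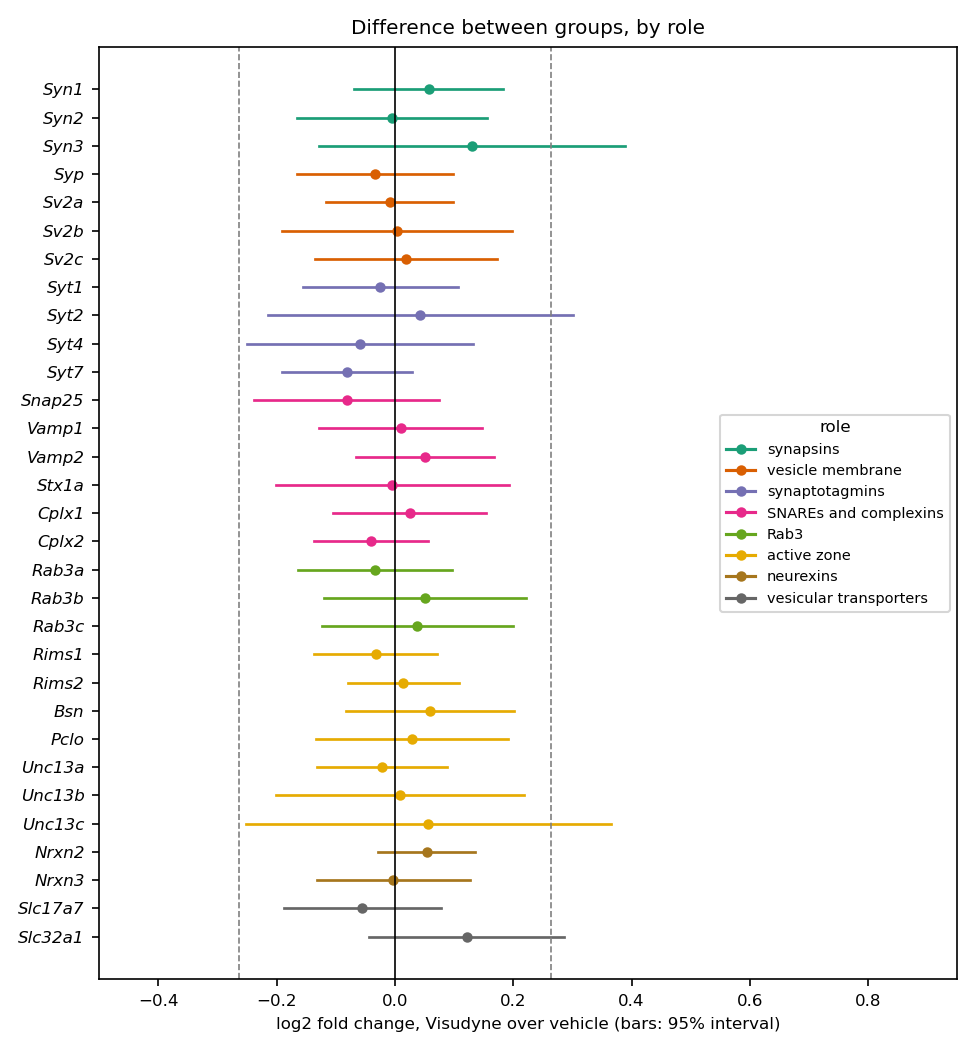
log2 fold change of each gene, Visudyne over vehicle (points), with its 95% interval (bars), coloured by role; dashed lines mark a 1.2-fold change in either direction. All 31 intervals include 0, and those of Syn3, Syt2, Unc13c and Slc32a1 cross a dashed line.

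Synapsins, the phosphoproteins that tether vesicles to actin, were led by Syn1 (chrX:20860511-20921004, minus strand; GRCm38, GENCODE M21, as for all genes here). It measured 159.6, 148, 149.6, 140.4 and 140.3 CPM in Visudyne samples 3, 6, 9, 12 and 15, against 125, 150.4, 146, 149 and 139 CPM in vehicle samples 1, 4, 7, 10 and 13. Visudyne 3 was highest and vehicle 1 lowest, and the groups overlapped (log2 fold change 0.057, SE 0.058). Syn2 measured 81.4, 78.8, 71.4, 72.5 and 72.9 CPM with Visudyne and 83.3, 65.8, 77.0, 84.0 and 68.3 CPM with vehicle, with the vehicle samples spanning more than the Visudyne samples on either side. Syn3 measured 11.3, 13.7, 13.2, 10.8 and 16.6 CPM with Visudyne and 9.98, 12.7, 11.2, 12.1 and 14.0 CPM with vehicle. Its log2 fold change of 0.13 (SE 0.12) was the highest among the members, and Visudyne 15 alone lay above the vehicle range. The Syn3 difference was 0.029 without Visudyne 15, and -0.025 without vehicle 1 and Visudyne 15 together.

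Of the vesicle membrane proteins, the Sv2 glycoproteins are transporter-like proteins of every vesicle, and Sv2a is the binding site of the antiepileptic drug levetiracetam. Sv2a measured 287, 269, 268, 267 and 241 CPM in Visudyne samples 3, 6, 9, 12 and 15, against 269, 279.6, 265, 271 and 256 CPM in vehicle samples 1, 4, 7, 10 and 13. Visudyne 15 was lowest and Visudyne 3 highest, around the vehicle range. Sv2b measured 563, 471, 511, 548 and 450.2 CPM with Visudyne and 549, 474, 518, 578 and 419.7 CPM with vehicle, with vehicle 13 lowest and vehicle 10 highest. Its within-group SD, 0.162 on the log2 scale, was larger than in 94.5% of the 1000 tested genes nearest to it in level. Sv2c, found mainly in basal ganglia, measured 31.2 to 34.2 CPM with Visudyne and 27.3 to 36.1 CPM with vehicle, and Syp measured 750.01 to 902 CPM with Visudyne and 787 to 920.3 CPM with vehicle. The log2 fold changes of these 4 genes lay between -0.034 (Syp) and 0.019 (Sv2c).

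Among synaptotagmins, Syt1 is the fast calcium sensor of forebrain terminals, Syt2 that of fast-spiking interneurons and hindbrain terminals, Syt7 a slow sensor of high calcium affinity, and Syt4 a form found on dense-core vesicles. Syt7 (chr19:10389090-10453180, plus strand) had the smallest p of all members and measured 240.4, 229, 243, 229 and 229.6 CPM in Visudyne samples 3, 6, 9, 12 and 15, against 249, 263, 229.9, 232 and 264 CPM in vehicle samples 1, 4, 7, 10 and 13. All 5 Visudyne samples lay below the vehicle mean and 3 below the lowest vehicle sample (log2 fold change -0.081, SE 0.050, 95% interval -0.19 to 0.028), but the groups overlapped. Syt1 measured 1076, 949, 989, 1035 and 895 CPM with Visudyne and 1014, 1036, 1026, 1048 and 906 CPM with vehicle. The lowest samples were Visudyne 15 and vehicle 13, and the log2 fold change was -0.025 (95% interval -0.16 to 0.11). Syt2 measured 41.5, 34.7, 34.0, 31.4 and 27.2 CPM with Visudyne and 34.0, 38.3, 30.97, 25.6 and 35.0 CPM with vehicle. Syt2 varied 1.63-fold over the 10 samples, from vehicle 10 to Visudyne 3, and its log2 fold change of 0.043 was well within its SE of 0.12. Syt4 measured 138 to 183 CPM with Visudyne and 139 to 178 CPM with vehicle.

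The SNARE proteins Snap25 and Stx1a on the plasma membrane and Vamp1 and Vamp2 on the vesicle zip together to drive fusion. Snap25, whose log2 fold change was the lowest of all members (chr2:136713453-136782428, plus strand), measured 1604, 1322, 1459.5, 1538 and 1278 CPM in Visudyne samples 3, 6, 9, 12 and 15, against 1666, 1475, 1530.1, 1562 and 1389 CPM in vehicle samples 1, 4, 7, 10 and 13. Visudyne 6 and Visudyne 15 lay below the lowest vehicle sample, and the other 3 Visudyne samples lay within the vehicle range (log2 fold change -0.082, SE 0.072, 95% interval -0.24 to 0.075). Vamp2, the main vesicle SNARE of the forebrain, measured 167, 152, 164, 152 and 154 CPM with Visudyne and 136, 162, 156, 158 and 148 CPM with vehicle. Vehicle 1 was lowest and Visudyne 3 highest (log2 fold change 0.051, 95% interval -0.066 to 0.17). Vamp1 measured 87.8, 80.9, 79.2, 72.1 and 79.6 CPM with Visudyne and 82.2, 83.8, 77.5, 69.8 and 83.7 CPM with vehicle, with vehicle 10 lowest and Visudyne 3 highest. Stx1a measured 47.3 to 62.6 CPM with Visudyne and 47.0 to 62.3 CPM with vehicle, a log2 fold change of -0.0045. None of the SNARE genes separated the groups. Of the complexins, Cplx2 measured 611, 597, 627, 584 and 601 CPM with Visudyne and 629, 577, 611, 639.6 and 648 CPM with vehicle. Vehicle 4 was lowest and vehicle 13 highest (log2 fold change -0.040, SE 0.044), and its within-group SD lay at the 6.5th percentile of the 1000 genes nearest in level. Cplx1 measured 199.7, 171, 171, 173 and 161 CPM with Visudyne and 187, 171, 164, 171 and 168 CPM with vehicle, with Visudyne 3 highest and Visudyne 15 lowest.

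Rab3 proteins are the small GTPases that mark vesicles ready for docking. Rab3a measured 305, 289, 287, 310.1 and 259 CPM in Visudyne samples 3, 6, 9, 12 and 15, against 328, 282, 288, 304 and 284 CPM in vehicle samples 1, 4, 7, 10 and 13. Vehicle 1 was highest and Visudyne 15 lowest. Rab3c measured 444, 412, 413, 454 and 390.1 CPM with Visudyne and 406, 401, 433, 469.7 and 348 CPM with vehicle, with vehicle 13 lowest and vehicle 10 highest. Rab3b measured 25.5 to 32.6 CPM with Visudyne and 25.6 to 31.4 CPM with vehicle. The log2 fold changes were -0.034 for Rab3a, 0.038 for Rab3c and 0.051 for Rab3b, each smaller than its SE.

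At the active zone, RIM proteins recruit calcium channels and Munc13, the giant scaffolds bassoon (Bsn) and piccolo (Pclo) organize the release site, and Munc13 proteins open syntaxin for SNARE assembly. Bsn measured 496, 511, 497, 449 and 508 CPM in Visudyne samples 3, 6, 9, 12 and 15, against 409, 487, 451, 504 and 512 CPM in vehicle samples 1, 4, 7, 10 and 13. Pclo measured 446, 415, 450.3, 402 and 447 CPM with Visudyne and 349.8, 481, 428, 446 and 415 CPM with vehicle. In either scaffold vehicle 1 was the lowest of the 10 samples. Rims1 measured 153, 135, 138, 144 and 135 CPM with Visudyne and 149.6, 151, 139.6, 143 and 138 CPM with vehicle. Rims2 measured 96.3, 95.2, 88.9, 91.0 and 86.1 CPM with Visudyne and 90.4, 94.3, 89.1, 91.5 and 87.7 CPM with vehicle. Unc13a, the principal Munc13 of excitatory terminals, measured 311, 308, 313, 276 and 307 CPM with Visudyne and 285, 319, 299.96, 308 and 325 CPM with vehicle. These values overlap throughout, with log2 fold changes from -0.032 (Rims1) to 0.059 (Bsn). Unc13b measured 24.9, 26.6, 24.5, 20.9 and 28.4 CPM with Visudyne and 23.2, 28.4, 23.8, 21.1 and 27.9 CPM with vehicle, with Visudyne 12 and vehicle 10 lowest. Unc13c, the Munc13 of cerebellar granule cells, measured 21.1 to 27.9 CPM with Visudyne and 17.3 to 29.1 CPM with vehicle, and its within-group SD exceeded that of 96.0% of genes of like level.

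Neurexins are presynaptic adhesion molecules that align the release site with postsynaptic neuroligins. Nrxn2 (chr19:6418731-6544169, plus strand) was the 1 member whose groups did not overlap, and it measured 167, 171, 165, 165 and 164 CPM in Visudyne samples 3, 6, 9, 12 and 15, against 163, 159, 152, 164 and 164 CPM in vehicle samples 1, 4, 7, 10 and 13. The lowest Visudyne sample exceeded the highest vehicle sample by less than 1 CPM, and the log2 fold change was 0.054 (SE 0.037, 95% interval -0.028 to 0.14, unadjusted p = 0.178 by edgeR). Among all genes tested, 0.319% had every Visudyne value higher than the highest vehicle value and 0.115% had every one lower than the lowest, 0.435% in all. The groups of Nrxn2 overlapped when the libraries were scaled by relative log expression or upper-quartile factors, when mitochondrial genes were removed, when the filter on low counts was dropped or made stricter, and without Visudyne 15, so the separation rests on the scaling. Nrxn3 measured 185 to 205 CPM with Visudyne and 165 to 204 CPM with vehicle, a log2 fold change of -0.0026.

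Of the vesicular transporters, Slc17a7 (chr7:45163949-45176142, plus strand) measured 868, 799, 789.9, 796 and 723 CPM in Visudyne samples 3, 6, 9, 12 and 15, against 908, 783, 773, 865 and 801 CPM in vehicle samples 1, 4, 7, 10 and 13. Vehicle 1 was highest and Visudyne 15 lowest (log2 fold change -0.055, SE 0.061). Slc32a1, which loads GABA and glycine (chr2:158610767-158615748, plus strand), measured 28.1, 29.2, 26.1, 35.1 and 26.7 CPM with Visudyne and 25.8, 27.3, 25.3, 28.1 and 26.9 CPM with vehicle. Its log2 fold change of 0.12 (SE 0.076, unadjusted p = 0.136 by edgeR) was the second highest, and Visudyne 12 stood above the other 9 samples. The GABA-synthesizing enzymes Gad1 and Gad2, other markers of inhibitory neurons, measured 232 ± 28.8 CPM in Visudyne and 235 ± 13.2 CPM in vehicle samples for Gad1 and 119.6 ± 20.3 CPM in Visudyne and 118 ± 8.08 CPM in vehicle samples for Gad2. The summed level of Gad1, Gad2 and Slc32a1 was highest in Visudyne 12, at 465 CPM, against 332 to 387 CPM in the other Visudyne samples and 349 to 394 CPM in vehicle samples. This sum includes Slc32a1 itself, with 35.1 CPM of the 465 in Visudyne 12. The part of inhibitory neuron content in the Slc32a1 value was not tested. Without Visudyne 12 the Slc32a1 log2 fold change was 0.049.

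Ratios of 2 genes within a library do not depend on its total, and 10 pairs were compared between the groups as log2 ratios of CPM by an exact two-sided permutation test, whose smallest p is 0.0079. The ratio of the glutamate to the GABA transporter transcript, Slc17a7 over Slc32a1, was 4.78 ± 0.18 in Visudyne and 4.95 ± 0.11 in vehicle samples (difference -0.17, exact p = 0.0952, n = 5 each, 0.811 adjusted over the 10 pairs). Without Visudyne 12 the difference was -0.099. Visudyne 12 had the lowest ratio, 4.50, and vehicle 1 the highest, 5.13. Rab3a over Rab3c was -0.54 ± 0.030 in Visudyne and -0.47 ± 0.16 in vehicle samples (difference -0.076, exact p = 0.365, n = 5 each). Rims1 over Rims2 was 0.62 ± 0.068 in Visudyne and 0.67 ± 0.035 in vehicle samples (difference -0.046, exact p = 0.238, n = 5 each). Syt1 over Syt2 was 4.88 ± 0.16 in Visudyne and 4.95 ± 0.27 in vehicle samples, with a difference of -0.069 that was small beside either SD. The other 6 pairs, Vamp2 over Vamp1, Unc13a over Unc13b, Sv2a over Sv2b, Syn1 over Syn2, Cplx2 over Cplx1 and Bsn over Pclo, differed by -0.062 to 0.058 on the log2 scale. Of the 10 pairs 0 passed, and the lowest adjusted value was 0.811. Per kilobase of merged exons and over all 10 samples, Syt1 exceeded Syt2 27.6-fold, Unc13a exceeded Unc13b 22.1-fold, Slc17a7 exceeded Slc32a1 15.1-fold, Vamp2 exceeded Vamp1 5.20-fold and Syn1 exceeded Syn2 4.09-fold, while Sv2a and Sv2b were near parity (0.954). These folds depend on the length used. Per kilobase of the longest transcript, the means over the 10 samples were 207 for Syt1 and 4.84 for Syt2. They were 263 for Slc17a7 and 9.96 for Slc32a1, 44.4 for Syn1 and 19.6 for Syn2, and 61.7 for Sv2a and 92.0 for Sv2b.

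**Figure D3:**
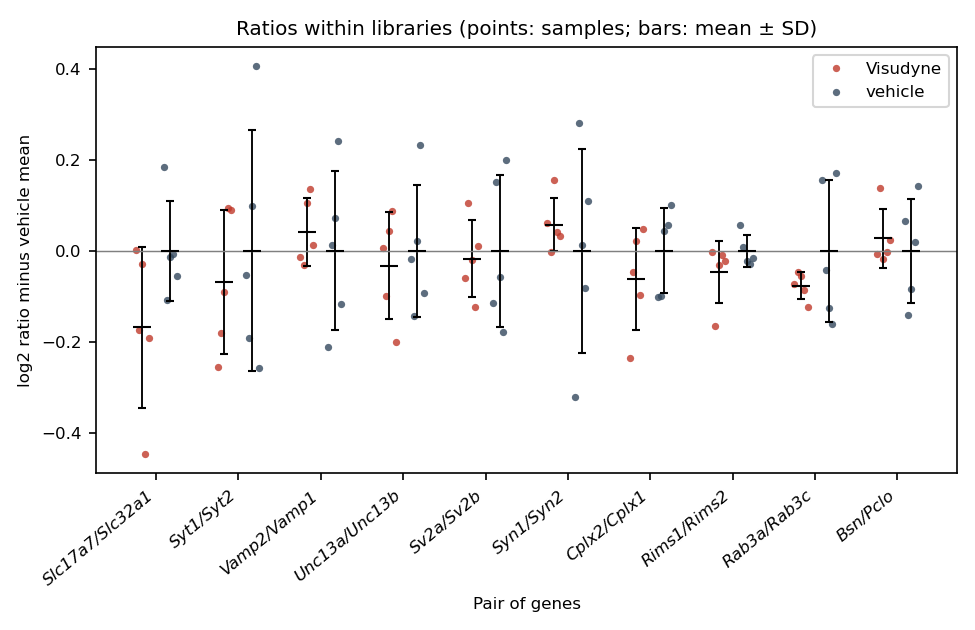
log2 ratio of each pair of genes within a library, minus the mean of the vehicle samples; points are samples, Visudyne left of vehicle, and bars are mean ± SD of 5 samples. The groups overlap in every pair, and the largest difference is that of Slc17a7 over Slc32a1 (-0.17).

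The samples varied along a pattern that did not follow the groups, and the members did not move as 1 block. The first principal component of the 31 genes carried 44.7% of their variance, and that of all genes tested carried a similar share, 41.4%. On the component of the 31 genes, Visudyne 15 (0.56) and vehicle 13 (0.37) stood at one end. Vehicle 1 (-0.51), Visudyne 12 (-0.36) and Visudyne 3 (-0.34) stood at the other, so that each end held samples of either group. Syp and Snap25 moved together (Pearson r = 0.959, Spearman rho = 0.976, n = 10 samples, permutation p adjusted over all 465 pairs of members 0.0093 for either). Without Visudyne 15 and vehicle 1, the samples farthest from the median of Syp, r was 0.912. Syn3 ran opposite to Syp (r = -0.936, rho = -0.891, n = 10, permutation p adjusted over the 465 pairs 0.0093 and 0.0478). Without Visudyne 15 and vehicle 1 the r of this pair was -0.836. In Visudyne 15 Syp was -0.17 and Syn3 0.41 from their means over the 10 samples on the log2 scale. In vehicle 1 Syp was 0.12 and Syn3 -0.31 from these means.

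Of the 465 pairs 18 had a positive and 6 a negative Pearson correlation at an adjusted permutation p under 0.05. The positive ones joined Syp with Snap25, Syt1, Syt4, Sv2b and Rab3a among others, and Syn1 varied with Vamp2 (r = 0.947, rho = 0.903, n = 10, adjusted permutation p 0.0093 and 0.0478, r = 0.800 without Visudyne 3 and vehicle 1). The negative ones were Syn3 with Syp, Snap25, Syt4 and Rab3a, and Unc13b with Syt4 and Sv2b. These pairs were picked from the data, and the share of such pairs among all genes was not computed. By rho, several named pairs did not pass. The adjusted permutation p of rho was 0.186 for Syp with Syt1, 0.0971 for Syp with Syt4 and 0.067 for Syp with Rab3a. It was 0.104 for Syn3 with Rab3a and for Unc13b with Syt4, and 0.182 for Unc13b with Sv2b. Syp with Snap25 and Sv2b, and Syn3 with Syp, Snap25 and Syt4, passed by rho too. Over the 31 genes, the weight on the component was larger for longer merged exons (r = 0.545 with the log10 length across genes, which are not independent). The same libraries stood at the ends of the first component of all 19093 genes, with 0.54 for Visudyne 15 and -0.55 for vehicle 1, and had the highest and lowest TMM scaling factors, 1.07 and 0.947. The part of these library properties in the pattern was not tested. Without these libraries 0 members were called, and the members' median log2 fold change was 0.029.

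**Figure D4:**
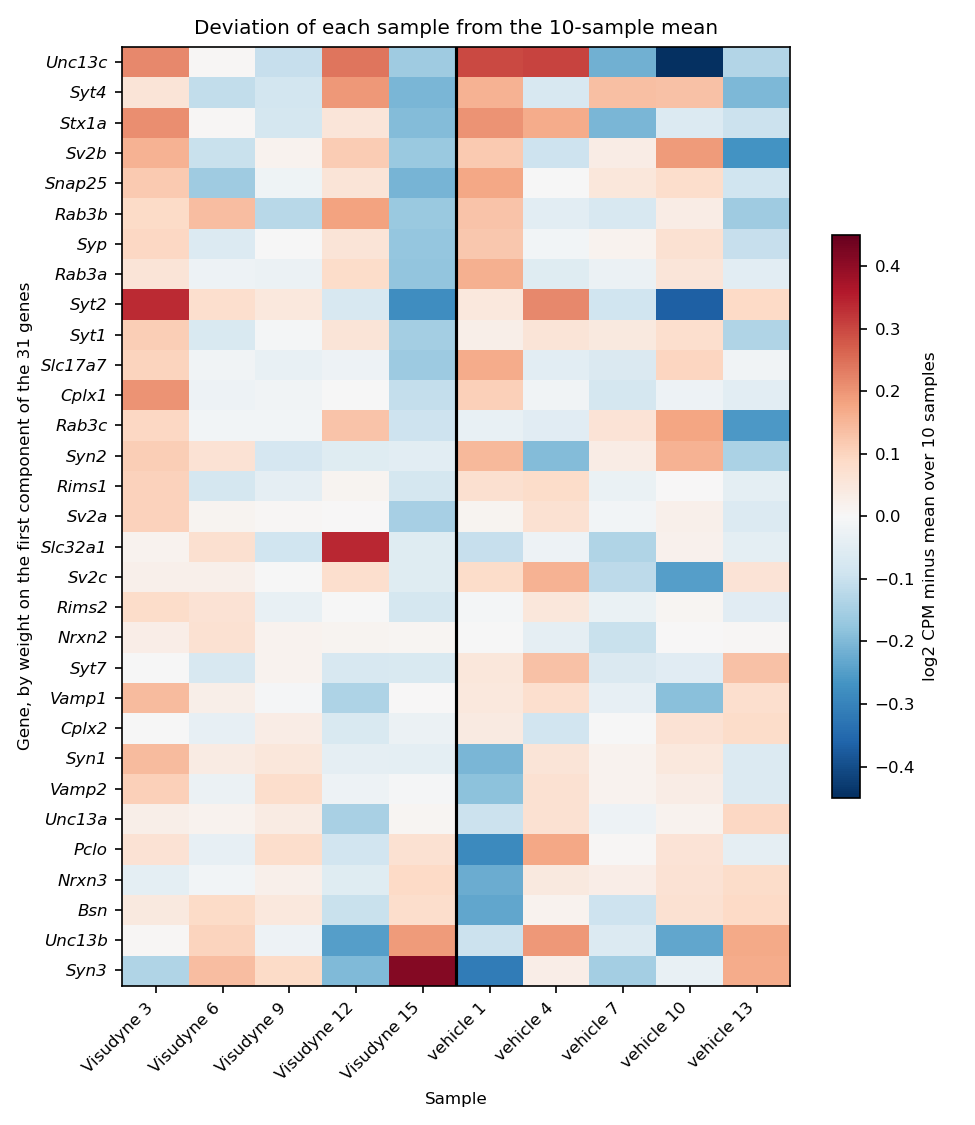
Deviation of each sample from the 10-sample mean of log2 CPM, genes ordered by their weight on the first component of the 31 genes, Visudyne samples left of the black line and vehicle samples right of it. Visudyne 15 and vehicle 1 show opposite patterns from Unc13c and Syt4 at the top to Syn3 at the bottom, and no column block follows the groups.

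A set of 6 pairs chosen with earlier results known was also examined, led by Syt2 and Vamp1, which in the forebrain mark fast-spiking interneurons and afferents from deeper regions. Over the 10 samples Syt2 and Vamp1 correlated with r = 0.818 and rho = 0.867 (permutation p = 0.0299 and 0.0145 adjusted over 6 chosen pairs, n = 10), and with r = 0.871 without Visudyne 15 and vehicle 10. On deviations from the group means r was 0.818. Adjusted over all 465 pairs of members, this pair did not pass (permutation p = 0.0635 for r and 0.0747 for rho, n = 10). Syt2 also correlated with the mean of 5 thalamic markers by r (0.757, adjusted permutation p = 0.0356, n = 10) but did not pass by rho (0.661, adjusted permutation p = 0.130). The r was weaker without Visudyne 15 and vehicle 10 (0.559), and it was 0.766 on deviations from the group means. The other 4 pairs had r of 0.535 (Vamp1 with the thalamic mean) to 0.681 (Syt2 with Pvalb, the calcium buffer of fast-spiking cells) and did not pass (lowest adjusted permutation p = 0.0597, n = 10). The summed thalamic markers ranged from 47.6 to 67.1 CPM in Visudyne samples and from 42.1 to 64.3 CPM in vehicle samples. They were lowest in vehicle 10, where Syt2 was lowest too, but highest in Visudyne 12, where Syt2 was below its mean over the 10 samples (-0.072 on the log2 scale). Whether the dissection differed between samples was not tested.

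In the wider presynaptic machinery no gene was called either. Of 104 further genes 101 were tested, 0 were higher and 0 lower at an adjusted p under 0.05 by edgeR, and 1 had an unadjusted p under 0.05. The median log2 fold change was -0.021, beside 0.0022 over all genes tested, with 31 positive and 70 negative. Over all genes tested 9754 were positive and 9339 negative. Genes are not independent, so these counts of signs are a description and not a test. Among 31 other priming and fusion genes the smallest p belonged to Prrt2, a SNARE regulator (105 ± 7.52 CPM in Visudyne and 111 ± 2.65 CPM in vehicle samples), Syt10, another synaptotagmin, and Napa, the SNARE-recycling adaptor. Among 27 other active zone and adhesion genes they were Erc2, a scaffold that binds RIM (52.0 ± 2.22 CPM in Visudyne and 56.4 ± 4.07 CPM in vehicle samples, unadjusted p = 0.0545 by edgeR), Ptprf, a receptor phosphatase of the LAR family, and Brsk2, a SAD kinase. Among 20 other vesicle proteins they were Synpr (synaptoporin), Dnajc5, a vesicle chaperone, and Sncb (beta-synuclein). Among 23 endocytosis genes they were Sh3gl2, Sh3gl1, a related endophilin, and Bin1, an amphiphysin. Sh3gl2 (an endophilin of neurons), which shapes the neck of the endocytic bud, measured 118 ± 3.35 CPM in Visudyne and 109 ± 6.47 CPM in vehicle samples (log2 fold change 0.13, SE 0.047, edgeR unadjusted p = 0.0211 and adjusted p = 0.9999). Rimbp2, Slc18a3 and Itsn2 were not analysed here.

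Library totals ranged from 53720011 to 68895223 estimated counts in Visudyne and from 51165271 to 66147697 in vehicle samples. Mitochondrial transcripts took 19.8 to 21.6% of them in Visudyne and 20.5 to 23.6% in vehicle samples, and the 31 members together took 8640 to 9876 CPM in Visudyne and 8928 to 9734 CPM in vehicle samples. Against the tissue label, the markers of dentate granule cells, CA1 and CA3 neurons were detected in every library. So were markers listed for neighbouring regions. Those of neocortex summed to 69.1 to 95.9 CPM in Visudyne and 68.5 to 96.4 CPM in vehicle samples. Those of striatum summed to 23.7 to 32.1 CPM in Visudyne and 21.8 to 29.6 CPM in vehicle samples. Whether they came from neighbouring tissue was not tested. Vehicle 7 had a higher sum of choroid plexus markers than the other libraries (211 CPM over 4 markers, against 24.9 to 49.996 CPM in Visudyne samples and 26.9 to 41.6 CPM in the other vehicle samples). This excess rests mainly on Ttr, which measured 43.7 ± 75.9 CPM in vehicle samples. The other markers spread little there (Kl 23.0 ± 3.07, Kcnj13 1.70 ± 0.595 and Folr1 0.695 ± 0.437 CPM). Of the meningeal fibroblast markers 1 of 4, Col1a1, was called higher with Visudyne (summed level 85.4 to 115 CPM in Visudyne and 35.5 to 89.0 CPM in vehicle samples), and 0 of the neuronal and glial markers were called. All 4 dentate granule markers were lower with Visudyne, by log2 fold changes of -0.18 (Lct), -0.17 (Stxbp6), -0.085 (Prox1) and -0.038 (Calb1). The unadjusted p by edgeR was 0.0201 for Lct, 0.0232 for Stxbp6 and 0.0389 for the CA3 marker Iyd (-0.27). The median log2 fold change was -0.090 for CA3, -0.057 for CA1 and -0.055 for excitatory neuron markers. The part of cell composition in the members' values was not tested. No member had more than 1.61% of its 31-base words in transcripts of another gene, the most being Cplx2. Exon bases shared with genes on the opposite strand reached 24.9% in Slc32a1, 16.8% in Syp, 14.5% in Syt4 and 14.1% in Syn3, and the strand setting used in the counting is not given in the sources used here.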

How the data were processed

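RNA of 10 hippocampal samples was measured by bulk RNA sequencing. The authors deposited 1 table of estimated counts per gene, made with Salmon on the mm10 mouse genome after quality control with FastQC, per the submitters' processing notes; the sources used here give neither versions nor the annotation release and strand setting. Groups were taken from the labels, and no batch is given. The estimated counts were rounded to whole numbers and filtered with filterByExpr in edgeR 4.0.16 (R 4.3.3), which kept 19093 of 28871 genes. They were scaled by TMM and fitted with the quasi-likelihood test over all 10 samples, without covariates, and p-values were adjusted over all 19093 genes by the Benjamini-Hochberg method at a threshold of 0.05. The fit was first tested on simulated data. CPM use TMM-scaled totals, and log2 CPM for ratios and correlations a prior count of 2. Merged exon lengths, gene coordinates and symbols come from GENCODE M21 (GRCm38), which held 28564 of the identifiers. Correlations used 100000 permutations (Python 3.11.15, SciPy 1.17.1). DESeq2 1.42.0 and limma 3.58.1 voom, other scalings and filters, a covariate for sample number, and leaving out each sample were alternatives. The genes, gene lists and alternatives were chosen with earlier results of these data known. Every one of the 31 genes is named. Values of each sample are given for the 4 smallest p in each direction, for genes whose groups did not overlap and for the members of the 10 pairs, and other presynaptic genes are named by the 3 smallest p per list.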

Additional observations from a re-analysis of the deposited data

Results flagged for a closer look

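In 82 groups of 5 values (31 genes and 10 ratios in either treatment), 6 held 1 sample that lay far from the other 4 by Dixon's test. Chance gives about 1 such group in 20, and 6 of 82 lies near that share. The ratios reuse the same genes, so the groups are not independent. The samples are listed as a description. In Visudyne samples, sample 12 was low for both the scaffold Bsn, at 449 CPM against 496 to 511 CPM in the others, and the priming factor Unc13a, at 276 CPM against 307 to 313 CPM. Visudyne 6 had a log2 ratio of Rims1 over Rims2 of 0.50, against 0.64 to 0.67 in the other Visudyne samples, and of Bsn over Pclo of 0.30, against 0.14 to 0.18. In vehicle samples, sample 13 was low for the calcium sensor Syt1, at 906 CPM against 1014 to 1048 CPM in the others. Vehicle 1 was low for the neurexin Nrxn3, at 165 CPM against 197 to 204 CPM.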

How the results depend on the processing

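Across all 20 alternatives 0 of the 31 genes were called in either direction. The lowest adjusted p of any of them was 0.946, the lowest unadjusted p 0.0617 and the largest absolute log2 fold change 0.20. Over all genes, the 4 called higher became 2 with upper-quartile factors, 2 without mitochondrial genes, 18 with DESeq2, 13 with sample quality weights in limma voom, 19 with a covariate for sample number, and 0 to 4 with 1 sample left out (0 without Visudyne 3, Visudyne 6 or vehicle 7). The 0 called lower became 0 to 1 with 1 sample left out (1 without vehicle 1). Leaving out both vehicle 1 and Visudyne 15, a choice made after seeing the data, gave 1 higher and 1 lower. The single gene with separate groups, Nrxn2, became 0 with relative log expression factors, 0 with upper-quartile factors, 0 without mitochondrial genes, 0 without those 2 samples, and 0 to 1 with 1 sample left out (0 without Visudyne 15). The sign changed under at least 1 alternative for 21 of the 31 log2 fold changes, none of which had passed the test. The turned values were 0.0040 for Syn2, 0.0013 for Stx1a and 0.0036 for Nrxn3 with upper-quartile factors. They were 7.1e-04 for Nrxn3 with no filter on low counts, and 0.0096 for Syn2, 0.0025 for Sv2a, 0.0065 for Stx1a and 0.0093 for Nrxn3 with at least 1 CPM in 5 samples. They were 7.9e-04 for Syn2 and 7.0e-04 for Nrxn3 with limma voom, 0.017 for Syn2, 0.0079 for Sv2a and 0.047 for Stx1a with its quality weights, and 0.017 for Syn2, 0.013 for Sv2a and 0.049 for Stx1a with the sample number. Without vehicle 1 and Visudyne 15 they were 0.048 for Syn2, -0.025 for Syn3, 0.033 for Syp, 0.029 for Sv2a, 0.014 for Syt1, 0.017 for Syt4, 0.096 for Stx1a, 0.045 for Rab3a, -0.043 for Pclo, -0.062 for Unc13b and 0.016 for Slc17a7. With 1 sample left out, the values whose sign turned ranged as follows: -0.051 to 0.039 for Syn2, -0.062 to 9.9e-05 for Syp, -0.037 to 0.022 for Sv2a, -0.051 to 0.057 for Sv2b, -0.033 to 0.061 for Sv2c, -0.058 to 0.0055 for Syt1, -0.043 to 0.11 for Syt2, -0.030 to 0.049 for Vamp1, -0.061 to 0.048 for Stx1a. Further ranges were -0.027 to 0.056 for Cplx1, -0.053 to 0.0045 for Rab3a, -0.0093 to 0.093 for Rab3c, -0.0055 to 0.032 for Rims2, -0.033 to 0.077 for Pclo, -0.048 to 0.015 for Unc13a, -0.044 to 0.072 for Unc13b, -0.033 to 0.15 for Unc13c, -0.055 to 0.026 for Nrxn3. The others were -0.0081 to 0.063 for Bsn over Pclo, -0.062 to 0.033 for Sv2a over Sv2b, -0.068 to 0.026 for Unc13a over Unc13b, -0.011 to 0.10 for Vamp2 over Vamp1, -0.023 to 0.13 for Syn1 over Syn2, -0.13 to 0.033 for Syt1 over Syt2. The cause of these shifts was not tested. Dividing by the longest transcript in place of the merged exons put the median level of the 31 genes at 29.8 CPM per kilobase, against 24.2, moved 21 levels by more than 1 SD and changed no rank by more than 3. A prior count of 0.5 turned no ratio. No paired analysis was possible because the groups share no sample number and the labels tie no sample of one group to a sample of the other. The lowest count of any of these genes in a library was 563, and counting error was not set against the spread between samples for each gene on its own. Counts per gene cannot show changes of isoform, protein or synapse number, and Visudyne without light was not analysed here.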
